A study of Drosophila melanogaster with 4 samples.

Results

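The basement membrane is the sheet of extracellular matrix that lines epithelia, muscles, gut and nerve cord. It is built from networks of laminin and collagen IV that are joined by the heparan sulfate proteoglycan perlecan and by nidogen, and cells hold on to it through integrins and dystroglycan. In the Drosophila embryo much of its collagen IV, laminin, perlecan and peroxidasin is made and deposited by hemocytes, the migrating blood cells, and the fat body takes over as the main source of collagen IV in larvae. Here 8 genes of this matrix were followed, chosen by name from the count table and all found there: the collagen IV chains Cg25C (now named Col4a1) and vkg (viking), the laminin chains LanA, LanB1 and LanB2, the perlecan gene trol, the peroxidasin gene Pxn and the matrix metalloproteinase gene Mmp2. They are 8 of 16727 genes in the table and 8 of the 11562 that had enough counts to be tested.

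RNA was sequenced from whole embryos aged 16 to 18 h in 2 groups of 2 libraries. The genotypes were deltaHisC; 12xH3.2-K4R and deltaHisC; 12xH3.2-WT. Every embryo, controls included, was homozygous for the deletion of the endogenous histone gene complex and was picked by its GFP, and its histone genes came from a 12-copy transgene. The transgenic histone H3.2 had arginine in place of lysine 4 in the mutant group and was unchanged in the wild-type group. By its title, the series concerns how this lysine counters the Polycomb group and aids expression of target genes. Counts per gene do not separate the alleles of the transgene, so the substitution itself was not checked here, and no label states that libraries of 1 group stem from different egg collections. The spread behind the p-values may therefore be only technical.

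The libraries held 42661669 and 37055590 counted read pairs in H3.2-K4R and 33882742 and 45509930 in H3.2-WT. Each member had at least 2475 counts in each library, and counting error at that lowest value was 2.01%, below the spread between libraries of 1 group. H3.2-K4R replicate 2 stood apart from the other libraries (Pearson's r of log2 levels across genes of 0.931 to 0.953 with them, and 0.958 to 0.967 among the other 3). Fold changes without it are given for the collagen IV chains, the laminin chains and Pxn, and not for the genes of the partner and marker lists. The samples carried late-embryo markers: the tracheal and cuticle genes verm, serp and Gasp lay between 1602 and 1997 CPM in every library (CPM, counts-per-million on TMM-scaled library sizes). Of the early genes, ftz had at most 0.323 CPM, but sna, Kr and twi were detected in every library, at 8.30 to 46.5 CPM. The genes verm, serp, Gasp and ftz were named outside the rule, after their values were seen.

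None of the 8 genes passed the test between the groups (edgeR's quasi-likelihood test; the lowest Benjamini-Hochberg adjusted p was 0.275), where 0.588% of all tested genes did. DESeq2 and limma-voom also called 0 of 8, where they called 5.75% and 1.5% of all tested genes. At those shares, 0 of 8 says little about the members. In these fits 2 and 1 members had an unadjusted p under 0.05. That level was reached by 17.7% of all tested genes in DESeq2 and 18.2% in limma-voom. The members did not move as a block. Both collagen IV chains and Pxn had lower means in H3.2-K4R, the laminin chains LanB1 and LanB2 were nearly level, and LanA, trol and Mmp2 had somewhat higher means. The 8 log2 fold changes ran from -0.44 for vkg to 0.27 for trol, with 4 above 0, 4 below 0 and a median of -0.01, against a median of -0.02 over all tested genes. With the trend of level on exon length removed, 1 of 8 (Mmp2) was above 0 and the median was -0.14, against 0.0031 over all tested genes. One member, vkg, had an unadjusted p under 0.05, a level that 16.9% of all tested genes reached. The libraries of the groups did not overlap for Cg25C, vkg, trol and Mmp2, that is for 4 of 8 members, as for 51.0% of all tested genes. For single values such as ratios, exact permutation of 2 libraries against 2 reaches a two-sided p of 1 in 3 at best, so they are given without a test. How often ratios of other gene pairs fail to overlap between the groups was not counted. A ratio without overlap is therefore a description only.

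**Figure D1:**
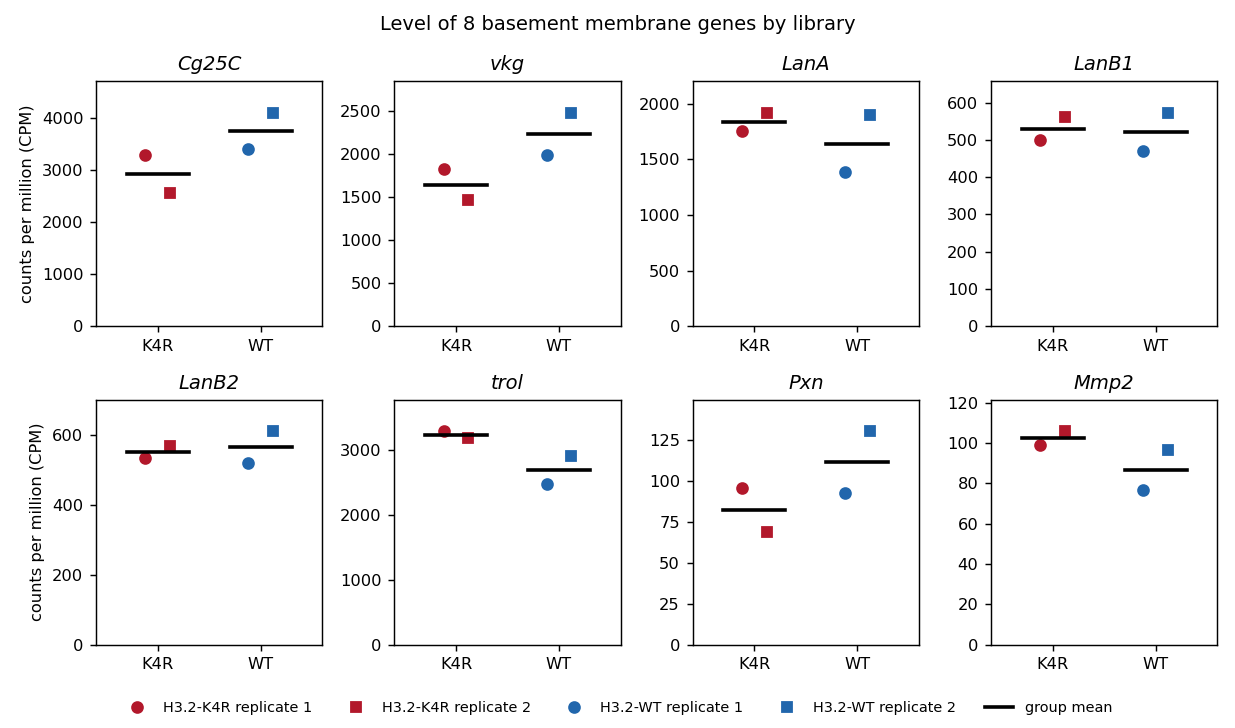
CPM of each basement membrane gene in each library, with H3.2-K4R on the left and H3.2-WT on the right of each panel; points are single libraries, black bars are group means and the vertical axes start at 0. Both H3.2-K4R libraries lie below both H3.2-WT libraries for Cg25C and vkg and above them for trol and Mmp2, and the groups overlap for the other 4 genes.

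The collagen IV chains form the network that gives the membrane its tensile strength. Their genes lie head to head on chromosome 2L: vkg at 5012144 to 5028191 on the minus strand and Cg25C at 5029609 to 5037279 on the plus strand (build dm6), with 1417 bases and no other gene of the table between their 5′ ends. Cg25C had 3294 and 2559 CPM in the H3.2-K4R libraries (replicates 1 and 2), against 3401 and 4099 CPM in the H3.2-WT libraries. For vkg the values were 1825 and 1461 CPM in H3.2-K4R, against 1986 and 2476 CPM in H3.2-WT. In both genes H3.2-K4R replicate 2 was the lowest library and H3.2-WT replicate 2 the highest, while the replicates numbered 1 of the groups lay close to each other.

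The log2 fold change was -0.36 ± 0.18 for Cg25C (SE, n = 2 per group; 95% interval -0.79 to 0.07; edgeR adjusted p = 0.377). For vkg it was -0.44 ± 0.18 (95% interval -0.86 to -0.02; edgeR adjusted p = 0.275). The size of these values rests largely on the replicates numbered 2: without H3.2-K4R replicate 2 the values were -0.19 for Cg25C and -0.29 for vkg, and without H3.2-WT replicate 2 they were -0.22 and -0.27. They were -0.55 and -0.61 when H3.2-K4R replicate 1 was left out, and -0.47 and -0.58 when H3.2-WT replicate 1 was.

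The ratio of the chains was steady. Per exon kilobase, the level of vkg was 0.525 and 0.541 of that of Cg25C in the H3.2-K4R libraries and 0.554 and 0.573 in the H3.2-WT libraries. The groups did not overlap in this ratio, with means of 0.533 ± 0.0114 in H3.2-K4R and 0.563 ± 0.0135 in H3.2-WT (SD, n = 2 each). Cg25C and vkg together took 0.511% and 0.392% of all counted pairs in H3.2-K4R, against 0.542% and 0.670% in H3.2-WT. Of the pairs counted in the 8 members, they took 44.9% and 38.6% in H3.2-K4R, against 51.8% and 51.4% in H3.2-WT.

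**Figure D2:**
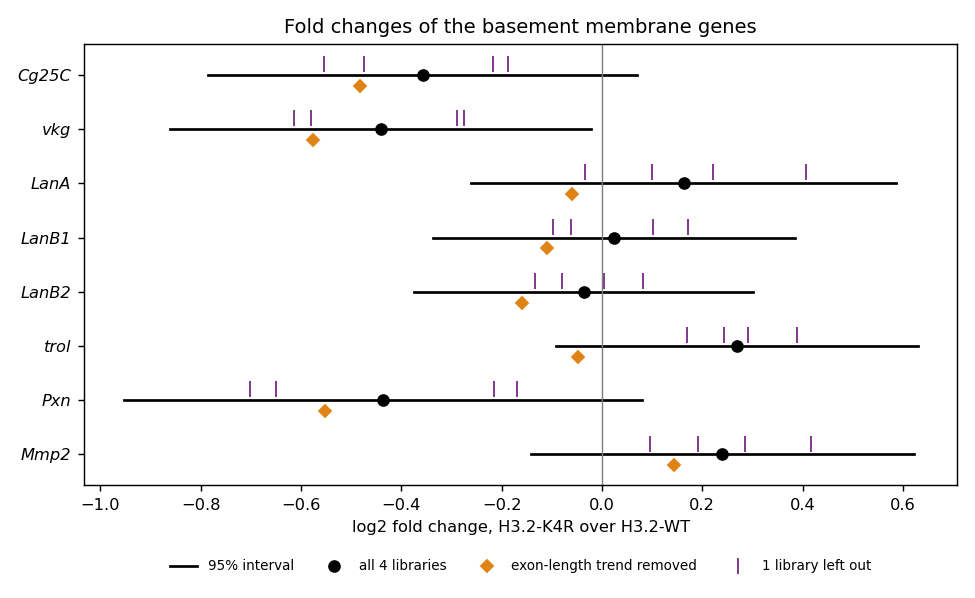
Log2 fold change of each member, mutant over wild type, with its 95% interval (black), the value with the exon-length trend removed (orange diamonds) and the values with 1 library left out (purple ticks). Cg25C, vkg and Pxn stay below 0 and Mmp2 above 0 in each of these settings, while LanA, LanB1, LanB2 and trol cross 0 in at least 1 of them.

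Laminin is the cross-shaped trimer of an alpha, a beta and a gamma chain that is laid down first and on which the rest of the membrane assembles. LanA (3L, 6203831 to 6218022) encodes an alpha chain, LanB1 (2L, 7811438 to 7820771) the beta chain and LanB2 (3L, 9614914 to 9623980) the gamma chain. LanB1 had 499.6 and 560.5 CPM in the H3.2-K4R libraries, against 470.5 and 572.4 CPM in the H3.2-WT libraries. LanB2 had 534 and 567 CPM in H3.2-K4R, against 520 and 609 CPM in H3.2-WT. For both genes the H3.2-K4R values lay inside the range of H3.2-WT.

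LanA had 1758 and 1919 CPM in the H3.2-K4R libraries, against 1386 and 1898 CPM in the H3.2-WT libraries. Here H3.2-WT replicate 1 stood below the other 3 libraries, which lay near each other. The log2 fold changes were 0.02 ± 0.16 for LanB1 (SE, n = 2 per group; 95% interval -0.34 to 0.38; edgeR adjusted p = 0.96) and -0.04 ± 0.15 for LanB2 (95% interval -0.37 to 0.30; adjusted p = 0.934). LanA had 0.16 ± 0.18 (95% interval -0.26 to 0.59; edgeR adjusted p = 0.71), and its value was -0.033 when H3.2-WT replicate 1 was left out. The signs of LanA, LanB1 and LanB2 each turned in at least 1 fit with a library left out. Without H3.2-K4R replicate 2, LanA had 0.099, LanB1 -0.061 and LanB2 -0.080.

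Per exon kilobase, LanB2 stood at 1.14 and 1.08 times LanB1 in H3.2-K4R and at 1.17 and 1.13 times in H3.2-WT, so the ranges of the groups overlapped. LanA stood at 1.89 and 1.84 times LanB1 in H3.2-K4R, against 1.58 and 1.78 times in H3.2-WT. This ratio did not overlap between the groups, and H3.2-WT replicate 1 was again the library that stood off. The other laminin alpha chain, encoded by wb (wing blister), was far less abundant than LanA: its level per exon kilobase was 0.0403 and 0.0411 of that of LanA in H3.2-K4R and 0.0407 and 0.0442 in H3.2-WT.

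The ratios from here on, like that of wb to LanA, were chosen after the values were seen. Set against LanB1, collagen IV was lower in both H3.2-K4R libraries. The level of Cg25C per exon kilobase was 6.72 and 4.65 times that of LanB1 in H3.2-K4R, against 7.37 and 7.30 times in H3.2-WT. For vkg the ratio was 3.53 and 2.52 in H3.2-K4R, against 4.08 and 4.18 in H3.2-WT. The H3.2-WT libraries agreed closely in both ratios, and the H3.2-K4R libraries differed from each other by more than H3.2-K4R replicate 1 differed from H3.2-WT.

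**Figure D3:**
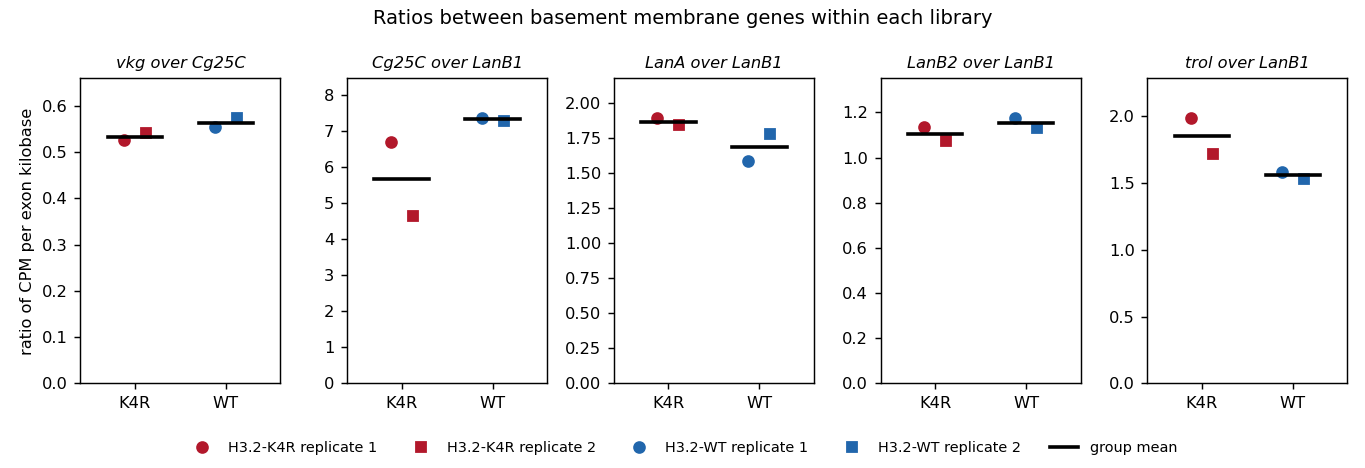
Ratios of levels per exon kilobase within each library, with H3.2-K4R left of H3.2-WT in each panel; points are libraries, bars are group means and the axes start at 0. LanB2 over LanB1 overlaps between the groups, whereas vkg over Cg25C and Cg25C over LanB1 are lower, and LanA over LanB1 and trol over LanB1 higher, in both H3.2-K4R libraries. The exon-length trend is not removed from these ratios.

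Perlecan, encoded by trol (X, 2470460 to 2545410), links the laminin and collagen IV layers and binds growth factors through its sugar chains. trol had 3284 and 3184 CPM in the H3.2-K4R libraries, against 2470 and 2899 CPM in the H3.2-WT libraries. The H3.2-K4R libraries lay close together and both above H3.2-WT. The log2 fold change was 0.27 ± 0.16 (SE, n = 2 per group; 95% interval -0.09 to 0.63; edgeR adjusted p = 0.434). Its level per exon kilobase was 1.99 and 1.72 times that of LanB1 in H3.2-K4R, against 1.59 and 1.53 times in H3.2-WT, a ratio that did not overlap. The gene has 25 annotated transcripts in Ensembl, and the count per gene does not tell them apart.

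Across genes, the difference between the groups varied with exon length, and all 8 members have long exon sets, from 5065 bases in Mmp2 to 20786 in trol, where the median tested gene has 1902.5. Among the 1318 tested genes with 5000 or more exon bases and the same floor of 4 on mean log2 CPM that the trend was fitted on, the median log2 fold change was 0.17. With the trend of level on exon length removed from each library, trol had -0.047 and LanA -0.060, and LanB1 and LanB2 had -0.11 and -0.16. Thus trol and LanA stood closer to LanB1 than in the main fit. Division by exon length does not remove this trend, so the ratios of trol and LanA to the shorter LanB1 still carry it. Mmp2 stayed above 0 at 0.14. The collagen chains and Pxn stood further below 0 in that fit, with -0.48 for Cg25C, -0.58 for vkg and -0.55 for Pxn (edgeR adjusted p = 0.231, 0.155 and 0.263).

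Peroxidasin, the product of Pxn (3L, 2601455 to 2630064), is a secreted heme peroxidase that cross-links collagen IV, and in flies its RNA is a mark of hemocytes. Pxn had 95.7 and 68.5 CPM in the H3.2-K4R libraries, against 92.3 and 129.9 CPM in the H3.2-WT libraries. The groups overlapped, since H3.2-K4R replicate 1 exceeded H3.2-WT replicate 1. Libraries of 1 group differed 1.40-fold in H3.2-K4R and 1.41-fold in H3.2-WT, the widest spread of the 8 members. The log2 fold change was -0.44 ± 0.22 (SE, n = 2 per group; 95% interval -0.95 to 0.08; edgeR adjusted p = 0.37), with -0.22 and -0.70 when H3.2-K4R replicate 2 or 1 was left out, and -0.17 and -0.65 when H3.2-WT replicate 2 or 1 was.

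Pxn shared its lowest library (H3.2-K4R replicate 2) and its highest (H3.2-WT replicate 2) with the collagen chains. Its level per exon kilobase was 0.0301 and 0.0277 of that of Cg25C in H3.2-K4R, against 0.0281 and 0.0328 in H3.2-WT, with overlapping ranges. Over 4 libraries this likeness is a description only. In Pxn, 2.54% of the exon bases lie in exons of the noncoding gene CR45660 on the same strand, and pairs there that fit both genes are left uncounted by the counter's default.

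Mmp2 (2R, 9611139 to 9683858) encodes a membrane-anchored metalloproteinase that cuts matrix proteins and opens basement membranes during tracheal growth and tissue remodelling. It had 98.8 and 105.8 CPM in the H3.2-K4R libraries, against 76.6 and 96.6 CPM in the H3.2-WT libraries. Both H3.2-K4R libraries were higher, by a margin smaller than the gap between the H3.2-WT libraries. The log2 fold change was 0.24 ± 0.17 (SE, n = 2 per group; 95% interval -0.14 to 0.62; edgeR adjusted p = 0.514), and 0.096 when H3.2-WT replicate 1 was left out.

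Per exon kilobase the mean over all 4 libraries ran in the order Cg25C (541.5 CPM per kilobase), vkg (298), LanA (149), trol (142), LanB2 (94.3), LanB1 (83.7), Mmp2 (18.6) and Pxn (16.2). The length used is that of all annotated exons of a gene together, which can exceed that of the transcripts present and then lowers the value. By this measure Cg25C ranked 177th and vkg 277th of the 11562 tested genes, LanA 456th, trol 471st and Pxn 3535th. Cg25C and vkg kept their places in every library, and LanB2 exceeded LanB1 in every library. LanA and trol changed places between libraries. In H3.2-K4R, Mmp2 stood above Pxn, at 19.5 and 20.9 against 16.1 and 11.5 CPM per kilobase. In H3.2-WT replicate 1 the genes were nearly level, at 15.1 for Mmp2 and 15.5 for Pxn, with a counting error of 1.96% for Mmp2. Only in H3.2-WT replicate 2 was Pxn clearly above Mmp2, at 21.8 against 19.1.

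The partners of these genes in the membrane showed the same mixture, and 0 of 79 tested genes in the 10 partner and marker lists passed the edgeR test over all genes, with 15 at an unadjusted p under 0.05, where 16.9% of all tested genes stood. After adjustment limma-voom called 0 of them, against 1.5% of all tested genes. DESeq2 called 4, or 5.06% (Mmp1 and ple higher, Pdi and Tm2 lower), against 5.75% of all tested genes, a share near the background. With the exon-length trend removed, edgeR called 0 of the 79. In that fit 10 of them had an unadjusted p under 0.05, as did 1792 of all 11562 tested genes. Fold changes of list genes, here and below, are from the main fit and keep the trend. Over all tested genes, 5563 of 11562 fold changes were positive, a share to hold beside each sign count of a list. Of 6 other basement membrane components, 4 had positive and 2 negative log2 fold changes, with a median of 0.05. SPARC, a collagen IV binding glycoprotein made by hemocytes and fat body, had 191 and 126 CPM in H3.2-K4R, against 223 and 259.6 CPM in H3.2-WT (-0.61 ± 0.21, SE, edgeR adjusted p = 0.219). It had the library order of the collagen chains. Mp, which encodes the multiplexin collagen related to collagens XV and XVIII, had 280.1 and 316 CPM in H3.2-K4R, against 203 and 246 CPM in H3.2-WT (0.41 ± 0.15, edgeR adjusted p = 0.246). Nidogen (Ndg, -0.10 ± 0.14) and papilin (Ppn, 0.14 ± 0.19) overlapped between the groups.

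Of 9 tested genes for the modification and secretion of collagen, 2 had positive and 7 negative fold changes, with a median of -0.11. Pdi, the protein disulfide isomerase that is also a subunit of collagen prolyl hydroxylase in animals, had 294 and 209.9 CPM in H3.2-K4R, against 369 and 399 CPM in H3.2-WT (-0.61 ± 0.18, SE, edgeR adjusted p = 0.179). It too was lowest in H3.2-K4R replicate 2 and highest in H3.2-WT replicate 2. The share of all tested genes with that order was not counted, so for SPARC and Pdi too the likeness is a description only. Plod, the lysyl hydroxylase of collagen IV, had -0.14 ± 0.15, the coat protein gene Sec23 -0.20 ± 0.18 and Rab10, which directs basement membrane secretion, 0.22 ± 0.15. Tango1, the receptor that loads collagen into transport carriers, had -0.11 ± 0.15 and was not picked by the naming rule.

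Of 7 remodelling genes, 6 had positive fold changes, with a median of 0.27. Mmp1, the secreted metalloproteinase, had 257.8 and 327 CPM in H3.2-K4R, against 199 and 184 CPM in H3.2-WT, with no overlap (0.61 ± 0.16, SE, edgeR adjusted p = 0.15). Timp, which inhibits both metalloproteinases and was named outside the rule, had 0.06 ± 0.18. AdamTS-B had 0.39 ± 0.20, stl, which encodes another ADAMTS-type protease, 0.27 ± 0.47 and the lysyl oxidase gene Loxl1, with few counts, 1.65 ± 1.10.

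Of 15 tested receptor and integrin adhesion genes, 9 had positive and 6 negative fold changes, with a median of 0.02. The integrin alpha chain gene scb had 132 and 125 CPM in H3.2-K4R, against 104 and 89.2 CPM in H3.2-WT (0.42 ± 0.15, SE, edgeR adjusted p = 0.228). Fit2, a kindlin that activates integrins, had 24.99 and 24.5 CPM in H3.2-K4R, against 34.8 and 38.6 CPM in H3.2-WT (-0.57 ± 0.17, edgeR adjusted p = 0.176). Syndecan (Sdc) had 0.32 ± 0.14 and dystroglycan (Dg) 0.20 ± 0.14. The integrin beta chain gene mys, the laminin-binding alpha chain gene mew and the talin gene rhea, named outside the rule, had 0.18 ± 0.15, -0.10 ± 0.16 and 0.16 ± 0.16.

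**Figure D4:**
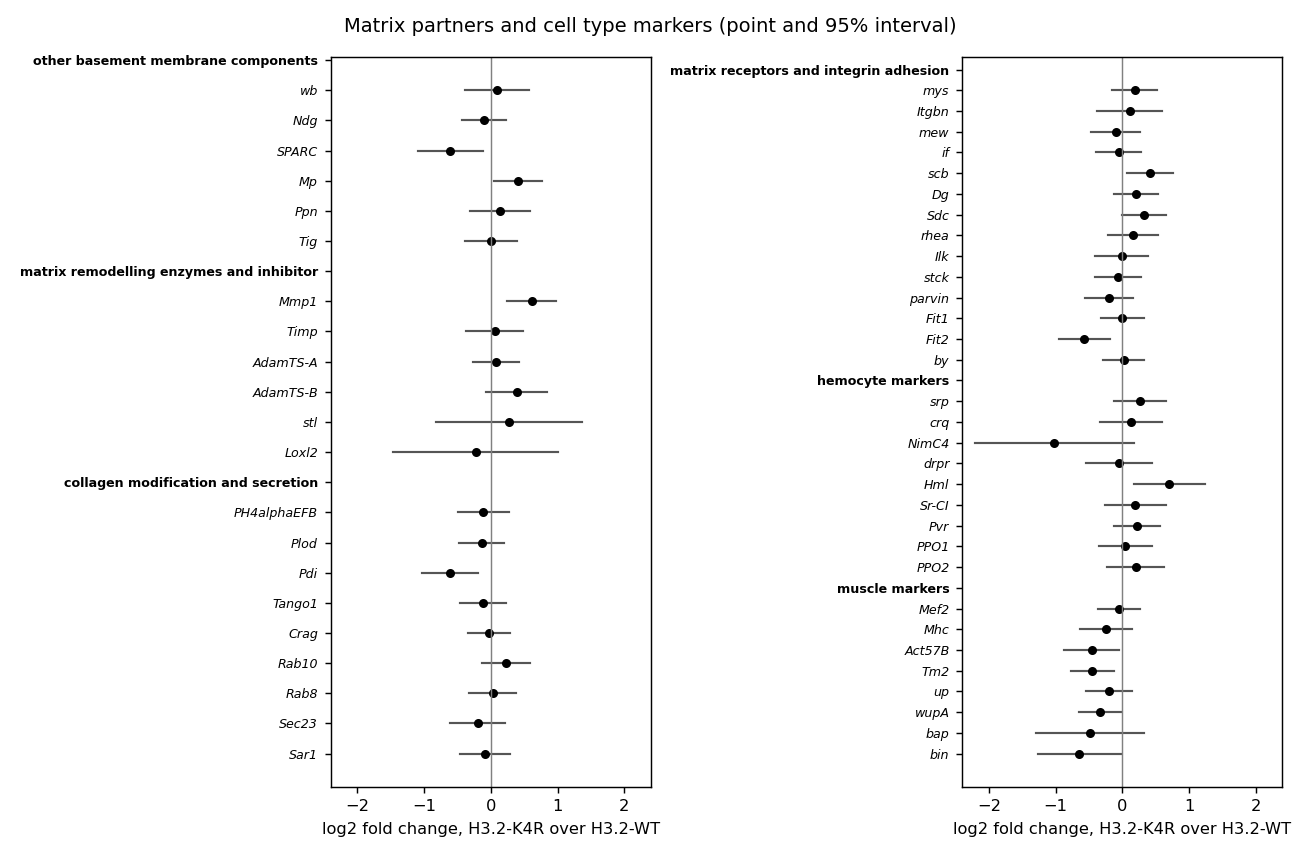
Log2 fold changes with 95% intervals for tested genes of 6 lists that had at least 30 counts in every library, H3.2-K4R over H3.2-WT. Intervals that leave out 0 are those of SPARC, Pdi, Fit2, Act57B, Tm2, wupA and bin below 0 and of Mp, Mmp1, scb and Hml above 0. Of all tested genes, 16.9% had an unadjusted edgeR p under 0.05. After adjustment over all genes, 0 of the genes shown passed.

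Markers of the cells that make or bear the matrix were read beside these values. In whole embryos, fewer cells of a type and less RNA per cell cannot be told apart. Of 11 hemocyte markers, 9 had positive fold changes (median 0.20), where 5563 of all 11562 tested genes did. Of these 9, eater (0.55 ± 1.40, SE) and lz (0.91 ± 0.87), named outside the rule, had few counts. Pxn, whose RNA is also a mark of hemocytes, was not in this list and had -0.44 ± 0.22. The summed level of the 11 markers was 696 and 747 CPM in H3.2-K4R, against 580.1 and 669 CPM in H3.2-WT. Most of this sum came from a few genes. Pvr, srp and PPO2, the last named outside the rule, had 182, 155 and 108 CPM in H3.2-K4R replicate 1. Hml, the hemocyte gene for hemolectin, had 60.8 and 41.97 CPM in H3.2-K4R, against 35.7 and 27.3 CPM in H3.2-WT (0.71 ± 0.23, SE, edgeR adjusted p = 0.199). The blood cell factor srp had 0.26 ± 0.17, Pvr, a receptor that hemocytes need to survive, 0.22 ± 0.15, and the engulfment receptor NimC4, at under 4 CPM, -1.02 ± 0.51.

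Muscle markers lay below 0 in 8 of 8 (median -0.39), with sums of 17680 and 15748 CPM in H3.2-K4R, against 22112 and 20753 CPM in H3.2-WT. Examples were Tm2 at -0.45 ± 0.14, Act57B at -0.46 ± 0.18, wupA at -0.33 ± 0.14 and bin at -0.64 ± 0.27 (SE, edgeR adjusted p between 0.186 and 0.285). Of 6 glial markers 4 were below 0 (median -0.21; moody -0.43 ± 0.17, repo -0.39 ± 0.19, Gli -0.26 ± 0.17, loco 0.23 ± 0.15), with sums of 514 and 475 CPM in H3.2-K4R, against 542 and 585 CPM in H3.2-WT. Of 5 tested fat body markers 2 were above and 3 below 0 (median -0.69). The lipophorin gene apolpp (0.42 ± 0.18) carried nearly all of their counts, Mtp had -0.69 ± 0.22 at under 30 CPM, and Fbp1, Fbp2 and Lsp2, the last named outside the rule, were under 2 CPM in every library. Their summed level, which is nearly that of apolpp alone, was 4110 and 5200 CPM in H3.2-K4R, against 3226 and 3747 CPM in H3.2-WT. The part of any of these cell types in the values of the members was not tested.

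Stage markers were given for age, and verm, serp and Gasp carried most of the late-embryo sum. The summed level of 7 late-embryo genes was 5725 and 5580 CPM in H3.2-K4R, against 5364 and 5520 CPM in H3.2-WT (median log2 fold change 0.13; ple 0.67 ± 0.17, knk 0.33 ± 0.18, Ddc -0.27 ± 0.15, kkv 0.17 ± 0.18). That of 5 tested early genes was 89.3 and 81.8 CPM in H3.2-K4R, against 87.0 and 90.3 CPM in H3.2-WT (median 0.11; Kr -0.28 ± 0.16, gt 0.83 ± 0.48, sna 0.11 ± 0.20, twi 0.12 ± 0.27). The 5 genes whose profile over the 4 libraries lay nearest to the median profile of the members, out of 5471 genes whose mean log2 CPM was 4 or more, were CG6664, CG11380, Vps20, CR43334 and CG34401, at distances of 0.046 to 0.049 log2 units. That median profile (0.01 and 0.06 log2 units from the gene's own mean in H3.2-K4R, against -0.13 and 0.13 in H3.2-WT) is nearest to LanB2 and LanB1 among the members (0.085 and 0.093) and far from vkg and Pxn (0.55 and 0.63).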

How the data were processed

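Total RNA of whole embryos was sequenced after depletion of ribosomal RNA, per the labels' protocols. Read-pair counts, whole and not normalized, were deposited in 1 table. The authors made them with featureCounts (Subread 2.0.6), over exons summed by gene, on 1 strand, with a dm6 annotation, per the file headers. Exon length per gene is another deposited value, per the file headers. STAR 2.7.7a and SAMtools 1.9 stand in the submitters' processing notes. The header sets no option for pairs that map to several places or genes, which the program leaves out by default. The columns write HWT for wild type, read here as H3.2-WT.

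Genes were filtered with filterByExpr (minimum count 10, minimum total 15), scaled by TMM and tested with edgeR 4.0.16 in R 4.3.3 (quasi-likelihood test, H3.2-K4R over H3.2-WT, Benjamini-Hochberg adjustment over 11562 genes, threshold 0.05). DESeq2 1.42.0, limma-voom (limma 3.58.1), other scalings, no filter, removal of the exon-length trend (a loess curve per library) and fits without each library were alternatives. Levels of different genes were compared per exon kilobase. Columns of per-sample values left unused numbered 0. The members and the gene lists were chosen with earlier results of these data known. Named are the members and, per list, the 4 tested genes with the lowest p and the 5 genes nearest to the members' median profile; Fbp1, Fbp2 and Loxl1 have few counts, and others are marked in the text. Of the list symbols, Strat had no match. Symbols were matched through the RefSeq gene table of Release 6. Sequences were not used here.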

Additional observations from a re-analysis of the deposited data

How the results depend on the processing

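Of the 8 members, 0 passed in every fit run except the one with the replicate block, where 1 did (vkg, -0.44, edgeR adjusted p = 0.0194). The block fit called 1366 of 11562 genes (11.8%) and 11 of 79 list genes (13.9%). Whether the replicate numbers pair the libraries is not known: no label names a shared batch, there are only 2 pairs, and across genes the deviations of same-numbered libraries correlated at 0.106. The block was therefore not used in the results above. Fold changes of Cg25C, vkg and Pxn stayed below 0 and that of Mmp2 above 0 in all fits. With the exon-length trend removed, the signs of LanA (-0.060), LanB1 (-0.11) and trol (-0.047) turned, and the median of the members was -0.14. With 1 library left out the ranges were -0.033 to 0.41 for LanA, -0.10 to 0.17 for LanB1, -0.13 to 0.081 for LanB2 and -0.12 to 0.13 for the median of the members. The count over all genes was 979 without a filter, 665 with DESeq2, 173 with limma-voom, 134 with the length trend removed, and 1 (without H3.2-WT replicate 2) to 838 (without H3.2-K4R replicate 1) with a library left out, against 68. List genes called numbered 6 without a filter, 4 with DESeq2 and 0 to 5 with a library left out, against 0. Without division by exon length, which sets these ratios by construction, vkg over Cg25C was 0.578, LanA over LanB1 3.30 and LanB2 over LanB1 1.06. The causes of the other changes were not tested. In fits that leave a group with 1 library, that library is assumed to vary like the other group. Counting error of the members was at most 2.01%, below the spread between libraries of 1 group; what more libraries would show was not tested.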
